A study of Mus musculus with 2 samples.

Results

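The choroid plexus ion and water transport genes described here are 9 genes whose products move water, potassium, chloride, bicarbonate, calcium or organic cations across the epithelium that secretes cerebrospinal fluid. They are Aqp1, Kcnj13, Kcne2, Slc4a5, Clic6, Trpv4, Slc29a4, Slc4a2 and Slc12a2, and they were chosen by name, with the processed intensities of these same arrays known. They were found on the arrays as the non-control probes whose accession belongs to these symbols. They are 9 of 15737 named genes that were measured, and all 9 were measured, by 12 probes with 1 spot each. Messenger RNA was compared between 1 pool of Il18-/- mice, which lack the cytokine interleukin-18, and 1 pool of Il18+/+ mice. Each pool joined total RNA of 7 male mice of the C57Bl/6 N background at 12 weeks of age, and each was hybridised to 1 one-colour Agilent array. How the Il18 allele was made is not given in the sources used here. The tissue is named hippocampus in the sample labels and prefrontal cortex in the extraction protocol, and all 12 markers of hippocampal neurons and all 9 of neocortical neurons were measured.

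The choroid plexus is a sheet of cuboidal epithelium around leaky capillaries in the brain ventricles, and part of it lies along the hippocampus. Its cells take up sodium, chloride and bicarbonate at the blood side and pass them into the ventricle at the brush border, and water follows. Aqp1, Kcnj13, Kcne2, Slc4a5 and Slc12a2 act at the ventricular side of these cells, while Slc4a2 acts at the blood side. Several of these genes are known in the brain chiefly from this epithelium. Slc12a2, Slc4a2 and Slc29a4 are also known from other brain cells, which does not mean that the others are confined to this epithelium. Which cells gave the signal of each gene was not tested.

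The 12 signals are processed spot intensities, and a level is the log2 intensity less that array's 75th percentile. A level can be set against the same probe on the other array, but not against another probe. Every difference is given as Il18-/- minus Il18+/+. Since a genotype is 1 pool, no test was possible and no difference has a replicate check, so each value describes these 2 arrays. The scanner software gives an error for every spot, which comes to ±0.20 on the log2 scale for the difference of a bright single-spot probe. Over the 256 measured probes with at least 9 spots kept, the differences had a median SD of 0.07. Both cover technical error within the arrays and leave out differences between animals. Il18 itself had a level of -0.12 in Il18-/- and 1.37 in Il18+/+, and its probe's place relative to the deleted part is not known here.

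The 9 genes split into 6 that were at least 2-fold lower in Il18-/- and 3 that differed by less than 1.5-fold. Aqp1, Kcnj13, Trpv4, Clic6, Slc4a5 and Kcne2 were lower by 2.91-fold to 2.22-fold. Slc4a2 and Slc12a2 differed by -0.30 and -0.18 on the log2 scale and Slc29a4 by 0.03, each within 1.5 times the software's error of 0.20. Over all measured genes, 405 or 2.57% were lower by at least 1.5-fold, and 71 or 0.451% by at least 2-fold. In any size, 8 of the 9 were lower and 1 was higher, beside 47.4% and 52.6% of all genes. None of the 9 was higher by 1.5-fold or 2-fold, beside 1.68% and 0.642% of all genes. The median difference of the 9 genes was -1.18, beside a median of 0.01 over all genes. These genes were chosen with earlier results of the same arrays known, so the counts describe them and support nothing further. In pooled tissue RNA, fewer choroid plexus cells and less RNA per cell cannot be told apart.

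**Figure D1:**
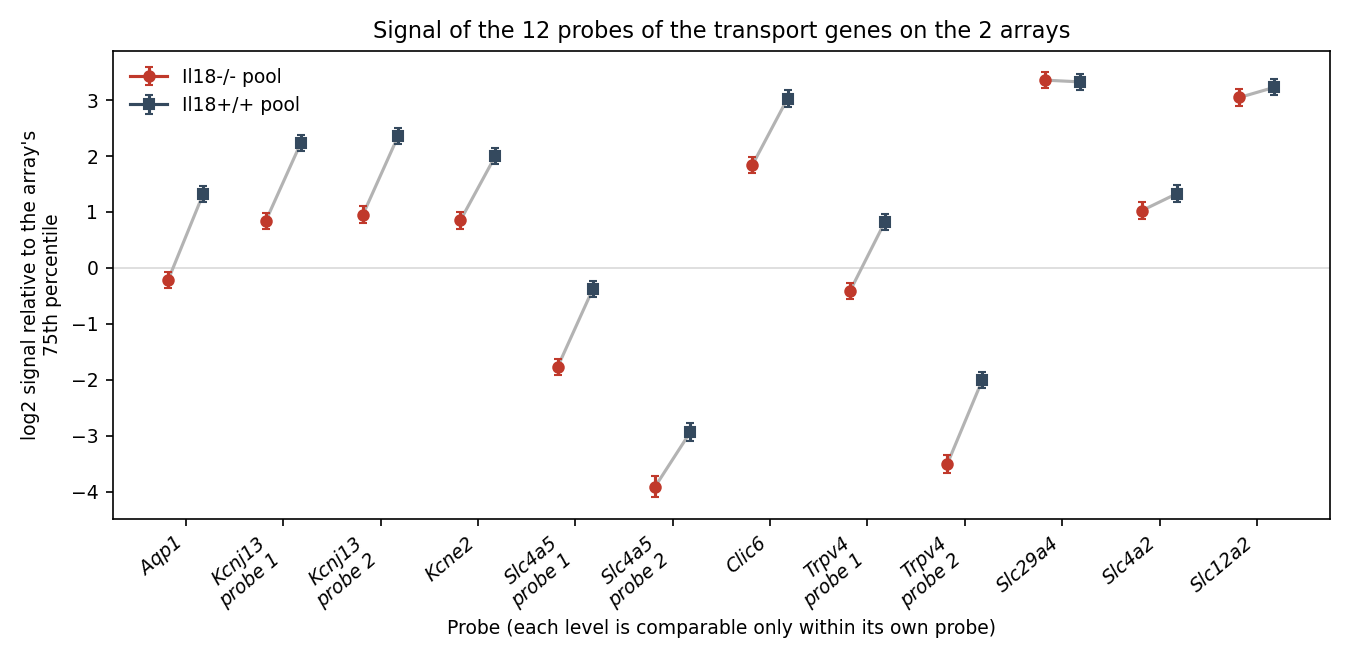
Level of each of the 12 probes in the Il18-/- pool (red circles) and the Il18+/+ pool (dark squares), as log2 signal relative to the array's 75th percentile, with the scanner software's error of each spot as bars. The 9 probes of Aqp1, Kcnj13, Kcne2, Slc4a5, Clic6 and Trpv4 are lower in Il18-/-, while those of Slc29a4, Slc4a2 and Slc12a2 lie close together.

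The stretches of 250 bases before the start site of 4 of these genes are shown, Kcnj13, Aqp1 and Slc4a5 from those lower in Il18-/- and Slc29a4 as the 1 gene that was not lower. They come from RefSeq in GRCm38.p6, and 7 of the 9 genes were matched there. Each runs 5′ to 3′ on the gene's strand, at chr1:87394730-87394979 on the minus strand for Kcnj13, and on the plus strand at chr6:55336049-55336298 for Aqp1, chr6:83237125-83237374 for Slc4a5 and chr5:142701851-142702100 for Slc29a4. Capitals mark the letters TATAAA, the motif of nuclear factor Y with the letters GCCAAT, and that of the Sp family with the letters GGGCGG, each on either strand.
Kcnj13 promoter: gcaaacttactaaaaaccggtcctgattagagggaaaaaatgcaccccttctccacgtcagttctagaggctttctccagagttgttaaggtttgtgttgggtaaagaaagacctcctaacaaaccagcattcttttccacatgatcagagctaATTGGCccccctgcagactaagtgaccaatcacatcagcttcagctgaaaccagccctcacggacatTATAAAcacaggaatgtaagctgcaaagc
Aqp1 promoter: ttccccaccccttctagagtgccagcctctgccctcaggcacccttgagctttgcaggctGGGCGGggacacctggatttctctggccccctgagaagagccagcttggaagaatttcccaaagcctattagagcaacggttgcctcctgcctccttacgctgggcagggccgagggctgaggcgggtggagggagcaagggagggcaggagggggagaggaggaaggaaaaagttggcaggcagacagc
Slc4a5 promoter: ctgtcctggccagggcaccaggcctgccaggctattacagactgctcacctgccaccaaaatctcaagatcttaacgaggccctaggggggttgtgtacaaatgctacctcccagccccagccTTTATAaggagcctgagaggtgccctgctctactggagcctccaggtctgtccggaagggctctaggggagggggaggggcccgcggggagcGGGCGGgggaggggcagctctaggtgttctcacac
Slc29a4 promoter: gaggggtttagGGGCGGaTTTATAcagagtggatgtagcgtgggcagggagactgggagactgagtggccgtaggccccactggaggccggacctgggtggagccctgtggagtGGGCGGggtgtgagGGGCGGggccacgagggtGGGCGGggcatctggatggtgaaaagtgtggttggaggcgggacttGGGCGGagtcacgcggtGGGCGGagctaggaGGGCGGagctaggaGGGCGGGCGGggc

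In the Kcnj13 promoter TATAAA began 29 bases before the start site, and GCCAAT stood on the other strand between 96 and 91 bases before it. The Aqp1 promoter held 1 GGGCGG and none of the other motifs. In Slc4a5, TATAAA lay on the other strand 127 to 122 bases before the start and 1 GGGCGG lay 35 to 30 bases before it. The Slc29a4 promoter held 9 GGGCGG, the last 2 of which overlap, and 1 TATAAA on the other strand, 232 to 227 bases before the start. Of the 9 listed promoters of the 7 genes, 3 held TATAAA on either strand, as did 12.4% of all 32851 listed promoters of the same length. It lay on the gene's own strand in Kcnj13 alone. The nuclear factor Y motif was in 1 of the 9 and in 13.5% of all, and the Sp family motif was in 5 of the 9 and in 32.7% of all. TAATCC, the motif bound by the choroid plexus transcription factor Otx2, was in none of the 9 and in 6.25% of all. A match is a description of letters in this window and shows no binding.

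The water channel gene had the lowest difference of the 9. Aqp1, the water channel of the brush border, had an intensity of 613.0 ± 61.4 in Il18-/- and 1743 ± 174 in Il18+/+ (software error, 1 spot each). After scaling, its level was -0.21 in Il18-/- and 1.33 in Il18+/+, a difference of -1.54 ± 0.20, so that 34.4% of the Il18+/+ signal was left. Only 10 of the 15737 genes had a lower difference.

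Kcnj13, an inward rectifier potassium channel of the brush border, was read by 2 probes. Their intensities were 1264 and 1375 in Il18-/-, against 3251 and 3546 in Il18+/+. The probes differed by -1.39 and -1.40, and the gene was 2.63-fold lower. Kcne2, a small subunit that joins voltage-gated potassium channels, had an intensity of 1278 ± 128 in Il18-/- and 2781 ± 278 in Il18+/+. Its difference was -1.15 ± 0.20, or 2.22-fold lower, and 45.0% of the signal was left.

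Among the bicarbonate transporters, Slc4a5 and Slc4a2 differed from each other. Slc4a5 cotransports sodium and bicarbonate into the ventricle. Its brighter probe had an intensity of 208.7 ± 21.1 in Il18-/- and 534.3 ± 53.5 in Il18+/+, a difference of -1.39 ± 0.21. Its dimmer probe read 47.3 ± 6.28 in Il18-/- and 90.7 ± 9.94 in Il18+/+, a difference of -0.97 ± 0.25. The gene mean was -1.18, or 2.26-fold lower. Slc4a2, which exchanges chloride for bicarbonate at the blood side, read 1445 ± 145 in Il18-/- and 1746 ± 175 in Il18+/+. Its difference was -0.30 ± 0.20, with 81.0% of the signal left, and 9.95% of all genes had a difference at or below it. The gap between Slc4a5 and Slc4a2 was -0.87 ± 0.26 by the software's error.

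Slc12a2, the sodium, potassium and chloride cotransporter of the brush border, had an intensity of 5862 ± 586 in Il18-/- and 6509 ± 651 in Il18+/+. Its difference of -0.18 ± 0.20 is within the software's error, and 88.1% of the signal was left. A difference at or below that was found for 19.0% of all genes. Clic6, a chloride intracellular channel protein, read 2546 ± 255 in Il18-/- and 5664 ± 566 in Il18+/+. It was lower by 2.27-fold, with a difference of -1.18 ± 0.20.

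Trpv4, a calcium-permeable channel that responds to swelling and warmth, was also read by 2 probes. The brighter had an intensity of 531.1 ± 53.3 in Il18-/- and 1229 ± 123 in Il18+/+, a difference of -1.24. The dimmer read 62.5 ± 6.99 in Il18-/- and 173.3 ± 17.6 in Il18+/+, a difference of -1.50. Both probes were lower, and the gene mean was -1.37. Slc29a4, a low-affinity carrier of monoamines and other organic cations, had an intensity of 7271 ± 727 in Il18-/- and 6962 ± 696 in Il18+/+. Its difference was 0.03 ± 0.20, and 54.7% of all genes had a difference at or below it.

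Ordered by difference, the genes ran Aqp1, Kcnj13, Trpv4, Clic6, Slc4a5, Kcne2, Slc4a2, Slc12a2 and Slc29a4. Neighbours among the first 6 were 0.01 to 0.19 apart, each gap within its software error of 0.21 to 0.26, so their order is not resolved. Kcne2 and Slc4a2, the neighbours across the split, were 0.85 ± 0.29 apart. The last 3 were 0.12 and 0.21 apart, again within the error of 0.29. The split was present under all 13 settings, 1 of which had no value for Clic6, with a gap between the groups of 0.48 to 0.85. Array median and spike-in scaling shift every difference by 1 amount, and the deposited values are the same intensities rescaled. The gap could not change in these. It also stayed at 0.85 with the 2 other filters on dim probes, the brightest probe and both ways of leaving out clustered spots. Those settings left the single probes of Kcne2 and Slc4a2, which set the gap, as they were. The gap was 0.81 with quantile and 0.78 with loess normalization, 0.48 with normexp and 0.60 without background correction.

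**Figure D2:**
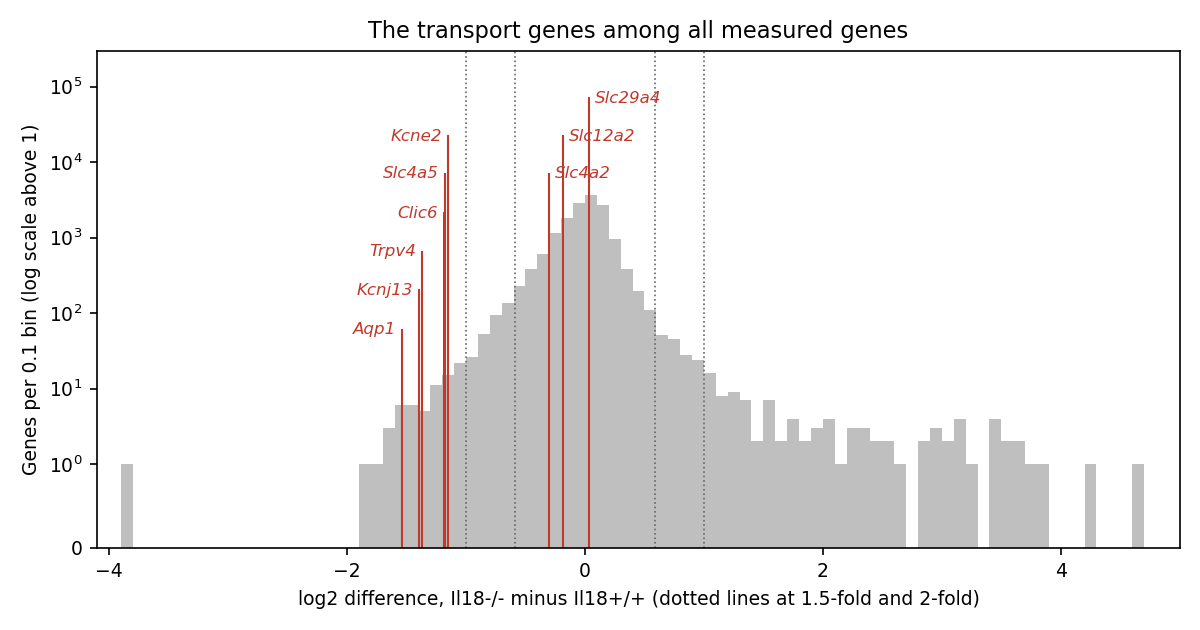
Number of genes per bin of 0.1 in the log2 difference, Il18-/- minus Il18+/+, over the measured genes (grey, log scale above 1), of which 1 gene falls outside the range drawn. Red lines place the 9 transport genes, whose height has no meaning: 6 lie beyond the 2-fold line on the left and 3 lie between the 1.5-fold lines.

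The spots of these genes were set against their surroundings on the glass. The median difference of the 18 nearest spots lay between -0.15 and 0.12 for every one of the 12 probes, and the local background was 36 to 48 intensity units on both arrays. None of the 12 spots was marked by the software as an outlier or saturated. With dim spots counted, the number of the 18 nearest spots past 2-fold in either direction was 4 and 2 for the Kcnj13 probes, 2 for Clic6, for the brighter Trpv4 probe and for Slc12a2, and 0 or 1 for the others. Clic6 was the 1 gene past 1.5-fold with at least 2 such spots in its own direction, and it had no such cluster among spots well above background.

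The genes were also set against their neighbours on the chromosomes. They lie on chromosomes 1, 5, 6, 16 and 18, with Slc4a2, Trpv4 and Slc29a4 on chromosome 5 and none on chromosome 9, which carries Il18. Kcne2 and Clic6 are within 5 measured genes of each other on chromosome 16. The 5 measured genes on each side of the 9 came to 82 genes without the members, with a median difference of 0.00, 41 of them lower and 41 higher. Of the 82, 2 were lower by at least 1.5-fold and 1 was higher, beside 2.57% and 1.68% of all genes. Gltp near Trpv4 was lower at -0.59 and Gm10536 near Slc12a2 at -0.68, while Atg9b near Slc4a2 was higher at 0.80. These 3 were named after their values were seen.

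The markers of choroid plexus epithelium outside these genes were lower as well. Of 21 listed markers 19 were measured, and 19 of the 19 were lower by 1.5-fold or more. Their median difference was -1.02. Their mean level was -0.53 in Il18-/- and 0.57 in Il18+/+. The tight junction gene Cldn2 was lowest, at -1.65, and the retinol dehydrogenase gene Rdh5 was nearest to 0, at -0.72. The transthyretin gene Ttr had a level of 7.05 in Il18-/- and 8.01 in Il18+/+. Folr1, the folate receptor gene of this epithelium, differed by -1.20, the coagulation factor gene F5 by -1.55 and the transcription factor gene Otx2 by -0.93. Of the transport genes, 6 lay inside this range, and the other 3 lay above its upper end. This placing changed with the processing. With normexp the markers ran from -1.15 to -0.30, so that Aqp1, Kcnj13 and Clic6 lay below them and Slc4a2 among them. Aqp1 and Kcnj13 also lay below the markers without background correction, and Aqp1, Kcnj13 and Slc4a5 did with the stricter filter. With no filter on dim probes the markers reached 0.77 through Cldn1 alone, which was not well above background in Il18+/+. The other 19 were still lower by 1.5-fold or more, while all 9 genes lay within the widened range. Cldn1 was well above background in Il18-/- only, where it read 1.70-fold higher, the ratio of its 2 readings and not a bound. Mfrp had no named probe. The part of this marker shift in the values of the transport genes was not tested.

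Markers of ependymal, endothelial, mural, meningeal and glial cells had median differences nearer to 0, and scaling to spike-in controls lowers each of these medians by 0.30. Ependymal genes had a median difference of -0.02, with 0 of 10 lower by 1.5-fold, and Tmem212 at 0.82. Endothelial genes had a median of -0.09, with 0 of 10 lower by 1.5-fold. Mural and meningeal genes had a median of -0.17, with 2 of 15 lower, Igf2 at -1.55 and Slc13a4 at -0.77, both of which choroid plexus also expresses. Astrocyte genes had a median of 0.05, with Fgfr3 at -0.86 as the mean of 2 probes that lay apart, at -1.52 and -0.20. Oligodendrocyte genes had a median of -0.26 with 0 of 10 at 1.5-fold. Their part in the values of the transport genes was not tested.

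Other genes of ion and water transport were described by 12 lists with 140 genes, of which 111 were measured. Of the 111, 5 were lower by at least 1.5-fold in Il18-/- and 6 were higher, beside 2.57% and 1.68% of all genes, and 9 of the 12 lists held none that was lower. Their median was -0.06 and the medians of the single lists ran between -0.22 and 0.08. The 5 lower genes were Prlr, the prolactin receptor gene, at -0.99, Htr2c, whose product binds serotonin, at -0.87, Clic3 at -0.62, Lrrc8b at -0.60 and Slc29a3 at -0.59. Prlr is also 1 of the choroid plexus markers. The 6 higher genes were Fxyd2 at 1.73, Aqp3 at 1.60, Car3 at 1.28, Ano1 at 0.93, Fxyd6 at 0.82 and Agtr1a at 0.73. Of these, Aqp3 and Agtr1a were dim, with levels of -3.75 and -4.00 in Il18-/- and -5.35 and -4.74 in Il18+/+. Their differences had software errors of 0.36 and 0.30.

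**Figure D3:**
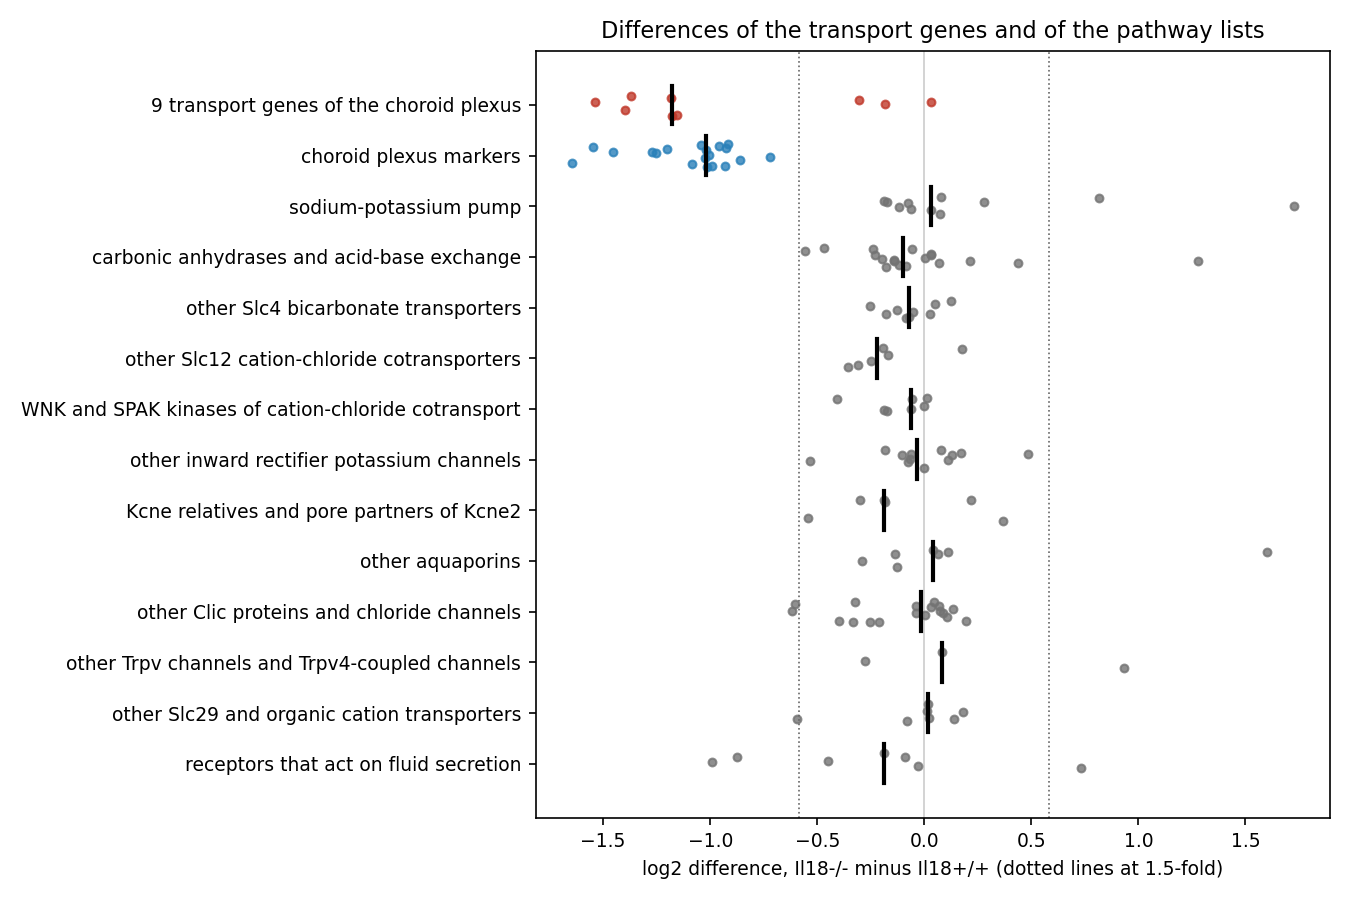
Log2 difference, Il18-/- minus Il18+/+, of every measured gene (points) of the 9 transport genes (red), the choroid plexus markers (blue) and 12 lists of other transport genes (grey), with each list's median as a black bar. The points of 6 transport genes and all 19 markers lie left of the 1.5-fold line, and the medians of the grey lists lie between -0.22 and 0.08.

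The sodium-potassium pump drives secretion, and its beta subunit genes Atp1b1 and Atp1b3 differed by -0.17 and 0.07. Fxyd2 and Fxyd6, small regulators of the pump, were 3.31-fold and 1.76-fold higher in Il18-/-. Fxyd2 lies on the chromosome of Il18, and the place of Fxyd6 is not given here. Among the carbonic anhydrases measured on both arrays, which supply bicarbonate, Car14 was lowest at -0.56, and Car2 and Car12 differed by -0.23 and -0.24. None of the 18 measured genes of this list was lower by 1.5-fold.

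Of the relatives of the 6 lower genes named here, only Clic3 was lower by 1.5-fold. Aqp4, the water channel of astrocytes, had a difference of 0.06 and Aqp11 of 0.11, so that Aqp1 lay 1.60 and 1.65 below them on the log2 scale. Of 12 other measured inward rectifiers none was lower by 1.5-fold: Kcnj10, the astrocyte channel, differed by -0.06, and Kcnj3, the lowest, by -0.54. Clic1, Clic4 and Clic5 differed by 0.11, -0.04 and 0.04, and Clic3, at a level of -3.33 in Il18-/- and -2.71 in Il18+/+, by -0.62. Trpv2 differed by 0.08. Among the 9 other Slc4 genes differences ran from -0.26 to 0.12, and Slc4a10, a further bicarbonate carrier of the choroid plexus, differed by -0.05. How much of the Slc4a10 signal came from choroid plexus was not tested.

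Partner and regulator genes of the channels and cotransporters were mixed. Kcnq1 and Kcna3, pore subunits that Kcne2 joins, differed by -0.18 and -0.30, both at dim levels, -4.05 and -3.88 in Il18-/- and -3.87 and -3.58 in Il18+/+. Slc5a3, the inositol carrier that works with such channels, was lower by 1.46-fold and lies among the chromosome neighbours of Kcne2 and Clic6. Ano1, a calcium-activated chloride channel gene that Trpv4 can couple to, was 1.91-fold higher. Of the kinases that act on Slc12a2, Stk39 differed by -0.17, and none of the 7 measured genes of that list reached 1.5-fold. Cab39l, an adaptor of these kinases, was lowest at -0.41. Other Slc12 genes had a median of -0.22, from -0.36 for Slc12a7 to 0.18 for Slc12a9, a range that contains the -0.18 of Slc12a2.

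The scaling of the arrays bears on the 3 genes that differed by less than 1.5-fold. After scaling, the 8 spike-in control probes were brighter in the Il18-/- pool by 0.30 at the median, with a range of 0.14 to 0.36, and scaling to them lowers every difference by that amount. Slc4a2 was then at -0.61, past 1.5-fold, Slc12a2 at -0.48 and Slc29a4 at -0.27, while 1728 of the 15737 genes were lower by 1.5-fold. The sign of Slc29a4 also turned with quantile and loess normalization, to -0.04 in each. Slc4a2 was at -0.40 with normexp and at -0.41 without background correction. Of the 6 lower genes, Aqp1, Kcnj13, Kcne2 and Trpv4 were past 2-fold in all 13 settings and Clic6 in the 12 that kept its probe. Slc4a5 was past it in 12 and at -0.89 with normexp background correction.

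**Figure D4:**
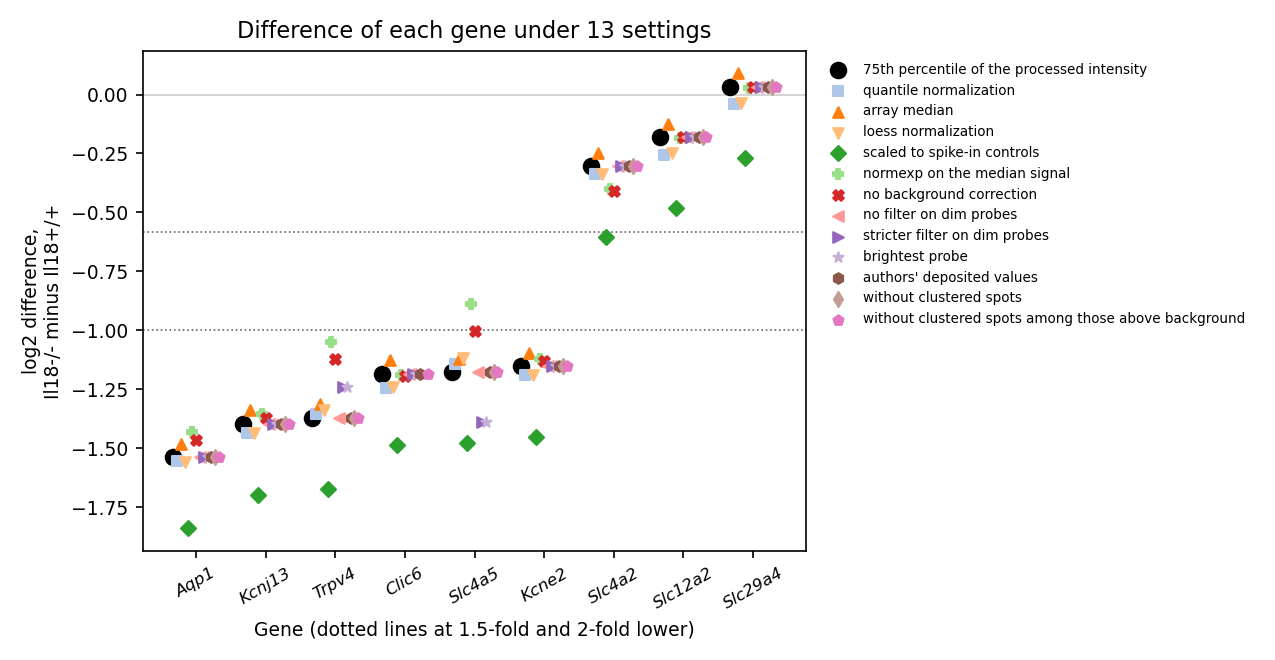
Log2 difference, Il18-/- minus Il18+/+, of each of the 9 genes (ordered by the main value) under the main setting (large black circles) and 12 others. Each of the first 6 genes stays below the last 3 in every setting that measured it, and scaling to spike-in controls (green diamonds) lowers all 9 by 0.30.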

How the data were processed

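RNA from 7 mice was joined into 1 pool for each genotype, labelled with Cy3 and hybridised to 1 array per pool, per the labels' protocols. Spot intensity was deposited as Agilent Feature Extraction 10.10.1.1 wrote it, per the submitters' processing notes. The software subtracted and detrended the background of each array, per the file headers, and the arrays were not scaled to each other. The array design refers to mm9. A value table that the authors deposited has this intensity on a linear scale without centring, multiplied by 1.92 in the Il18-/- column and by 2.05 in the Il18+/+ column. The origin of these factors is not known here. Its column medians were 139.5 and 151.5.

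Control spots and outlier flags (177 spots in Il18-/-, 124 in Il18+/+) were left out. Intensities were set to log2, and each array's 75th percentile over non-control spots was subtracted, which was 709.9 for Il18-/- and 694.8 for Il18+/+. Probe accessions, less their versions, were looked up among the RefSeq genes of GRCm38.p6, and 27235 of 55681 probes had 1 symbol. Any accession with several symbols was left unnamed, and such probes were not counted apart. A gene is the mean over its probes well above background on both arrays, which held for 65.4% of probes in Il18-/- and 67.2% in Il18+/+, each counted singly. The number of arrays limits the precision.

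The members and lists were chosen with earlier results of these data known. By rule, named genes are all 9 members, Il18, genes of each list past 1.5-fold, otherwise up to 3 genes with the largest difference, and relatives set against a member. Of the longer marker lists the text gives examples. Atp1b1, Atp1b3, Car2, Car12, Car14, Car13, Car5b and the genes above background on 1 array were named outside the rule, with their values seen. Alternatives were quantile, median and loess normalization (span 0.3), spike-in scaling, normexp (offset 50) and no background correction on the median signal (the mean signal was not used here), 2 other filters on dim probes, the brightest probe, the authors' deposited values, and leaving out clustered spots, meaning any spot past 1.5-fold that has 2 or more spots past 2-fold, with its own sign, among the nearest 18. A further form of the last, with dim spots left out of the search, was chosen after seeing the data. The values of 1 listed gene are not reported here. A planned comparison of protein sequences was not run. The calculations were tested on simulated data. Normalization used limma 3.58.1 in R 4.3.3, and the rest used scipy 1.17.1, pandas 2.3.3 and numpy 2.4.6 in Python 3.11.15, with figures by matplotlib 3.10.9.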

Additional observations from a re-analysis of the deposited data

How the results depend on the processing

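The count of members lower by at least 1.5-fold in Il18-/- was 6 in all settings except 7 with scaling to spike-in controls and 5 without clustered spots, where Clic6 had no probe left. Over all genes, 405 were lower and 264 higher by 1.5-fold in the main setting, and 71 and 101 by 2-fold. Scaling to spike-in controls moved the median of the members to -1.48, of the choroid plexus markers to -1.32 and of the pathway lists to -0.36. It gave 18 pathway genes lower by 1.5-fold, and over all genes 1728 lower and 128 higher by 1.5-fold and 244 lower and 67 higher by 2-fold. The pathway count lower by 1.5-fold was 3 with quantile and with loess normalization and 2 with the array median. With normexp it was 3 lower and 3 higher, and over all genes 107 lower and 113 higher by 1.5-fold and 22 and 49 by 2-fold. Without background correction it was 3 lower, and over all genes 147 and 132 by 1.5-fold and 34 and 61 by 2-fold. With no filter on dim probes it was 12 lower and 11 higher, and 1356, 814, 500 and 395 over all genes in the same order. With the stricter filter it was 3 and 3, and 129, 93, 34 and 39. The 2 filters and leaving out clustered spots change how many genes are counted. Spike-in scaling and the array median shift every difference by 1 amount, -0.30 and 0.06. For the other settings the cause was not tested. No value past 1.5-fold changed its sign, and of 395 other values 49 moved by more than the software's error, 32 of them under spike-in scaling. Signal over background limits the dim probes of Slc4a5 and Trpv4. No paired analysis was possible because each genotype has 1 array.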

Other observations

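Genes of the transport lists outside the measured set add little. Of the 29 genes not measured, 20 were not well above background on either array and 2 had no named probe. In Il18-/- only, Fxyd4 and Aqp6 were well above background, at least 1.20-fold and 1.71-fold higher. In Il18+/+ only there were 5, with Car13 lower in Il18-/- by at least 1.82-fold. Car5b read 2.10-fold lower in Il18-/-, which is the ratio of its 2 readings and not a bound.

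Medial habenula and liver markers were mostly higher in Il18-/-. The medial habenula list had 9 measured genes, of which 7 were higher in Il18-/- by 1.5-fold or more, and a median of 1.14, with the tachykinin gene Tac2 at 2.80. Of 9 measured liver genes 8 were higher by that size, with the albumin gene Alb at 3.64, and the exception was Ttr, at -0.96, which the choroid plexus list holds too. Hippocampal neuron genes had a median of 0.21 and neocortical genes of -0.14. With scaling to spike-in controls these medians were -0.09 and -0.44. With the stricter filter on dim probes the neocortical median was 0.04, and the hippocampal median stayed at 0.21.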
